A study of Mus musculus with 18 samples.

Results

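The gastrocnemius and the quadriceps of untreated HSA-LR mice were compared, with 3 libraries of each muscle from 3 mice, which are 6 of the 18 libraries in the series. The libraries were chosen by their titles, and the muscles of a mouse were paired by replicate number, since the animal numbers repeat in both muscles. HSA-LR mice carry a human skeletal actin transgene with an expanded CTG repeat. The actin gene drives it in skeletal muscle, so that other tissues are not modelled. The 3 HSA-LR mice were 20-week-old males of the FVB strain, labelled untreated. The FVB WT mice, used here as the normal pair of muscles, were also untreated and of the same age, with 3 libraries of each muscle. The other 6 libraries came from HSA-LR mice given Pip6a-PMO, a peptide-conjugated antisense oligonucleotide against the repeat. They entered no comparison, but shared in the estimate of the spread, the filter on low counts and the scaling. Polyadenylated RNA was sequenced, and read counts per exon bin, the smallest non-overlapping pieces of a gene's exons, were summed to genes.

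In myotonic dystrophy type 1, RNA with expanded CUG repeats is retained in nuclear foci and binds the muscleblind-like (MBNL) splicing factors, so that many muscle transcripts keep a fetal splicing pattern. Loss of the chloride channel ClC-1 through inclusion of an exon of Clcn1 causes myotonia, the delayed relaxation of muscle. The gastrocnemius, the superficial calf muscle, and the quadriceps, the large extensor of the thigh, are both mainly fast in mice, and slow oxidative fibers are more frequent in parts of the calf.

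The 6 HSA-LR libraries held between 98916844 and 123686154 counts, within the range of all 18 libraries, from 98916844 to 143135976. The 10 skeletal muscle markers summed to between 149300 and 170600 CPM (counts per 1000000 of the normalised total) in the 6 libraries. None of these 10 markers was called different by the edgeR test described next, 3 had an unadjusted P under 0.05, and DESeq2 called 1. Y-linked genes summed to between 1.15 and 1.43 CPM in the WT mouse of replicate 3, whereas the WT mouse labelled female, replicate 2, had 154 and 181 CPM, so the sex labels of these 2 WT mice do not match their libraries. In bulk muscle, fewer cells of a type and less RNA per cell cannot be told apart.

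Of 16167 genes tested, 1060 differed between the diseased muscles (6.56%; adjusted P under 0.1, edgeR quasi-likelihood test with the mouse as a block). Of these, 626 (3.87%) were higher in gastrocnemius and 434 (2.68%) were lower, and 363 (2.25%) differed at least 2-fold. All 3 mice moved the same way for each of the 626 higher genes and for 414 of the 434 lower genes. The 3 gastrocnemius values lay above the 3 quadriceps values for 541 of the higher genes, beside 12.4% of all genes tested, and below them for 358 of the lower genes, beside 9.28%. The count fell to 294 without HSA-LR mouse 1 and to 150 without mouse 2, and was 838 without mouse 3. Without the mouse block 357 genes were called. DESeq2 called 1494 genes, a fit to the 12 WT and HSA-LR libraries 1267 and a fit to the 6 HSA-LR libraries alone 833.

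Slow-fiber genes had the largest median difference of the 25 gene lists examined. All 11 measured genes of the slow sarcomere and its calcium store were higher in gastrocnemius, with a median log2 fold change of 4.87 against 0.01 for all genes. Their summed level was 4843, 2266 and 4028 CPM in the gastrocnemius of mice 1, 2 and 3, and 280.6, 169.5 and 142.1 CPM in the quadriceps of the same mice. The muscles did not overlap, and gastrocnemius 2 was the lowest of its group. Without mouse 2, 7 of the 11 were called.

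Myh7 (ENSMUSG00000053093.15, chr14:54970684-54994626, GRCm38), the slow myosin heavy chain, was at 907.9, 388.5 and 716.5 CPM in gastrocnemius and at 13.79, 3.618 and 3.613 CPM in quadriceps. This was a log2 fold change of 6.79 (SE 1.08, adjusted P = 0.0156, edgeR). Myh7 has a near-identical neighbour, Myh6, with which reads can be shared. Tnnt1, the slow troponin T, was at 786.5, 370.4 and 631.6 CPM against 16.16, 5.295 and 3.78 CPM (log2 fold change 6.35, SE 0.89, adjusted P = 0.00948, edgeR). Atp2a2, the calcium pump of slow and cardiac muscle, was at 703.4, 344.0 and 579.4 CPM against 97.05, 79.78 and 67.06 CPM (log2 fold change 2.69). Casq2, the slow calsequestrin, had the smallest difference of the list, 1.25 on the log2 scale. In WT, 8 of the 11 were called higher in gastrocnemius, beside 1.33% of all genes, among them Myh7 (log2 fold change 5.31), and none of the list was called in the test of HSA-LR against WT muscle differences.

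Among 15 fast-fiber genes, 2 were higher in HSA-LR gastrocnemius and none lower, beside 3.87% and 2.68% of all genes tested. Myh2, the IIa myosin heavy chain, was at 2650, 1415 and 2836 CPM in gastrocnemius and at 601.6, 391.7 and 396.3 CPM in quadriceps (log2 fold change 2.28, adjusted P = 0.0172, edgeR). Myh1, the IIx chain, was at 19410, 13490 and 18100 CPM against 5310, 8285 and 13930 CPM (log2 fold change 0.98, adjusted P = 0.0995, edgeR), its groups overlapped, and it was not called without mouse 1, without mouse 2 or without the block. Myh4, the IIb chain, was not called, at 29370, 42450 and 39720 CPM against 45810, 42680 and 45560 CPM. In WT none of these 15 genes was called. Of 32 genes of oxidative phosphorylation none was called by edgeR, 1 had an unadjusted P under 0.05 and DESeq2 called 1. Among 27 genes of fatty acid oxidation, Esrrg, a nuclear receptor of oxidative metabolism, and Fabp3, the muscle fatty acid carrier, were higher in gastrocnemius by 1.18 and 0.98 on the log2 scale, which is 7.41% of the list beside 6.56% of all genes, and neither was called when any 1 of the 3 mice was left out. Of 27 glycolysis and glycogen genes, only Gpd1, the cytosolic glycerol-3-phosphate dehydrogenase, was called (3.70%, beside 6.56% of all genes), and it was lower (log2 fold change -0.78). The list count was 0 without mouse 1 or mouse 2 and 2 without mouse 3.

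**Figure D1:**
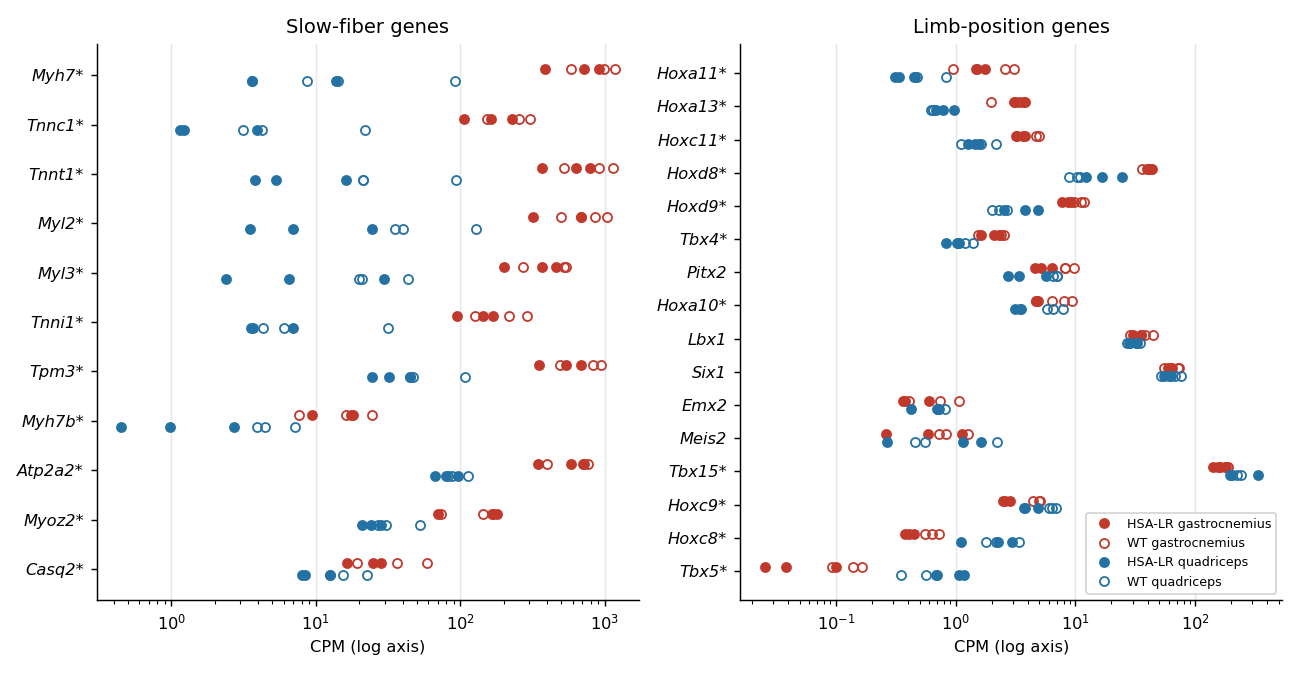
CPM (log axis) of slow-fiber genes (left) and limb-position genes (right) in each library of gastrocnemius (red) and quadriceps (blue), with HSA-LR as filled and WT as open circles. An asterisk marks a gene called between the HSA-LR muscles, as all 11 slow-fiber genes and 11 of 16 limb-position genes were.

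Genes that mark position along the limb also separated the diseased muscles. Of 27 listed homeobox and T-box genes, 20 were found by symbol in the counts, and 16 of these passed the filter on low counts. Of the 16, 7 were higher in gastrocnemius and 4 lower, beside 3.87% and 2.68% of all genes tested. The higher group held Hoxa10, Hoxa11, Hoxa13, Hoxc11, Hoxd8 and Hoxd9 and the hindlimb factor Tbx4. Hoxc11 was at 3.811, 3.622 and 3.268 CPM in gastrocnemius and at 1.578, 1.447 and 1.263 CPM in quadriceps (log2 fold change 1.32, SE 0.13, adjusted P = 0.00253, edgeR), and its WT difference was 1.40. The lower group held Hoxc8, Hoxc9, Tbx5 and Tbx15. Hoxc8 was at 0.408, 0.445 and 0.38 CPM against 2.961, 2.243 and 1.112 CPM (log2 fold change -2.26). Tbx5, known as a forelimb factor, was near 0 in gastrocnemius at 0.0385, 0.0998 and 0.0253 CPM and at 1.067, 1.168 and 0.694 CPM in quadriceps (log2 fold change -4.20). WT muscles had 4 of these genes called higher and 1 lower, the latter beside 0.557% of all genes. Without mouse 1, 6 genes of the list were called in HSA-LR, and 4 without mouse 2.

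Of 16 genes of regeneration and denervation, 2 were higher in gastrocnemius and 1 was lower, beside 3.87% and 2.68% of all genes tested. Chrna1, the alpha subunit of the acetylcholine receptor, was at 53.28, 55.76 and 60.3 CPM in gastrocnemius and at 27.03, 25.08 and 21.41 CPM in quadriceps (log2 fold change 1.21, SE 0.15, adjusted P = 0.00657, edgeR). Musk, the receptor kinase that clusters acetylcholine receptors, was at 31.31, 36.71 and 59.21 CPM against 14.83, 19.26 and 21.52 CPM (log2 fold change 1.16, adjusted P = 0.0136, edgeR), and was not called without the block (adjusted P = 0.237, edgeR). Neither gene overlapped between the muscles. The WT differences were smaller, 0.14 for Chrna1 and 0.50 for Musk, but the test of HSA-LR against WT differences did not call them (adjusted P = 0.185 and 0.492, edgeR). Gadd45a, a stress gene raised by denervation, was lower in gastrocnemius (log2 fold change -0.81). The other 13 of the 16 were not called, among them Chrng, the fetal receptor subunit, at 0.8083, 1.151 and 0.9965 CPM against 1.039, 0.867 and 1.296 CPM, and Myog, at 5.75, 5.394 and 5.202 CPM against 4.492, 5.582 and 6.046 CPM.

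Of 27 excitability and calcium genes, 3 were called (11.1%, beside 6.56% of all genes tested) and 8 had an unadjusted P under 0.05. DESeq2 and the fit to the 12 WT and HSA-LR libraries called 5 each, beside 1494 and 1267 of all genes. Among the 3, Kcnq5, a potassium channel, was higher in gastrocnemius (0.54 on the log2 scale), whereas the potassium channels Kcnc4 (-0.79) and Kcnn3 (-0.58) were lower, and the list had 1 call without mouse 1, without mouse 2 or without the block. Clcn1 was not called, at 215.7, 193.0 and 176.9 CPM in gastrocnemius and at 174.5, 155.3 and 173.0 CPM in quadriceps. None of 22 splicing regulators was called by edgeR or DESeq2, and 4 had an unadjusted P under 0.05. Mbnl1 was at 284.2, 300.7 and 334.4 CPM against 290.6, 296.1 and 343.8 CPM, and Mbnl2 at 103.5, 98.94 and 136.8 CPM against 96.51, 94.57 and 128.6 CPM, with overlapping groups for both. Acta1, the mouse skeletal actin, was not called (log2 fold change 0.15); the counts of the human transgene were not analysed here. Actc1, cardiac actin, was lower in gastrocnemius, at 6.513, 5.133 and 8.926 CPM against 21.33, 23.38 and 23.72 CPM (log2 fold change -1.77), with a WT difference of -1.47, and it was not called without mouse 2.

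Markers of other cell types moved with the muscle. Myelin and Schwann cell genes summed to 118.2, 140.1 and 114.2 CPM in gastrocnemius and to 86.99, 72.79 and 63.8 CPM in quadriceps, and 5 of 11 were called higher, beside 3.87% of all genes, among them Mag, a myelin adhesion protein (log2 fold change 1.25), and Sox10, a transcription factor of Schwann cells (1.12). Of 8 endothelial markers 6 were higher, Cdh5 by 0.56, and of 7 smooth muscle markers 4 were higher, Myh11 by 0.67. Of 8 tendon markers 4 were higher, Scx, the tendon transcription factor, by 0.81. In WT none of the nerve or endothelial markers was called, against 1 of the smooth muscle and 4 of the tendon markers, but the test of HSA-LR against WT muscle differences called none of these 4 lists' genes (smallest adjusted P = 0.277, edgeR). The nerve count was 3 without mouse 1, 0 without mouse 2 and 3 without mouse 3. The endothelial count was 2, 0 and 1 in the same order and 1 without the block. The smooth muscle count was 1 without mouse 2, and the tendon count was 1 without mouse 1, without mouse 2 or without the block. Their part in the differences above was not tested.

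Of 11 macrophage markers, Adgre1 was called lower (log2 fold change -0.72), which is 9.09% of the list beside 2.68% of all genes tested. It was not called when any 1 HSA-LR mouse was left out. In 7 of the 11 every gastrocnemius value was below every quadriceps value, beside 9.28% of all genes, and 5 had an unadjusted P under 0.05. The count called was 7 in the fit to the 6 HSA-LR libraries alone, 5 in the fit to 12 libraries and 3 with DESeq2. Over all genes these fits called 833, 1267 and 1494, of which 350, 542 and 731 were lower in gastrocnemius. The list summed to between 85.8 and 101 CPM in gastrocnemius and between 103 and 136 CPM in quadriceps. None of 7 erythroid markers was called by edgeR and 4 had an unadjusted P under 0.05, with sums between 507 and 678 CPM in gastrocnemius and between 79.4 and 330 CPM in quadriceps. In WT 4 of the 7 erythroid markers were called higher in gastrocnemius. Other lists had few calls: Irs1 (lower) of 25 genes of atrophy and autophagy, Hlf and Bhlhe40 (higher) of 18 clock genes, Heyl (higher) of 8 satellite cell markers, Rplp0 (higher) of 12 genes that the study names, and none of 2 epidermis markers. These counts stand beside 6.56% of all genes tested. None of 18 immediate early genes was called by edgeR, 5 had an unadjusted P under 0.05 and DESeq2 called 3. Of 24 matrix genes, Col1a1 and Col1a2, the chains of collagen I, were higher by 0.34 and 0.37, and Col14a1 was lower, with a log2 fold change of -0.57. The 3 called are 12.5% of the matrix list, beside 6.56% of all genes tested, and 12 of the list had an unadjusted P under 0.05. DESeq2 called 7 and the fit to 12 libraries 8, beside 1494 and 1267 of all genes. None was called without mouse 1, without mouse 2 or without the block, beside 294, 150 and 357 of all genes.

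Adipocyte genes split the quadriceps libraries. The 12 markers summed to 597.2, 718.1 and 781.7 CPM in gastrocnemius and to 1953, 2637 and 653.4 CPM in quadriceps. Quadriceps 1 and 2 were therefore high, and quadriceps 3 lay among the gastrocnemius values. Ucp1, the uncoupling protein of brown fat, was at 0.131, 0.0998 and 0.0591 CPM in gastrocnemius and at 61.87, 187.7 and 0.0836 CPM in quadriceps, and was the only one of the 12 called. Without mouse 3, 10 of the 12 were called, and none was without mouse 1 or without mouse 2. Over all genes, 527 were called lower in gastrocnemius without mouse 3, 99 without mouse 1 and 66 without mouse 2. Of the 434 genes lower in gastrocnemius, 61 had this same order, with quadriceps 1 and 2 above every gastrocnemius value and quadriceps 3 not. The order was picked from the adipocyte values, and its share among all genes tested was not counted. The 61 include Elovl3, Elovl6 and Dgat1, enzymes of fatty acid elongation and triglyceride synthesis. Elovl3 was at 0.0154, 0 and 0 CPM in gastrocnemius and at 1.921, 9.014 and 0.00836 CPM in quadriceps. Fat around the muscle as a source of this RNA was not tested.

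Across all genes, those with the smallest P among the genes at least 2-fold higher in gastrocnemius were Col11a2, Ppp1r1a, Barx2, Hoxc11, Pcp4l1, Lrrn1, Slc15a5, Col9a1, Chrna1 and Tbx21. Col11a2 (chr17:34039437-34066685, GRCm38), a chain of collagen XI, was at 24.5, 30.09 and 18.3 CPM in gastrocnemius and at 10.08, 9.931 and 7.686 CPM in quadriceps (log2 fold change 1.38, SE 0.10, adjusted P = 0.00179, edgeR), and its WT difference was 1.03. Col9a1, a chain of collagen IX, was at 10.84, 10.04 and 10.46 CPM against 3.935, 2.945 and 2.827 CPM (log2 fold change 1.71). Its WT levels were lower in both muscles, between 1.16 and 1.53 CPM and between 0.411 and 0.897 CPM. Barx2, a homeobox factor of muscle progenitors, was at 10.15, 8.594 and 6.705 CPM against 2.701, 1.884 and 1.648 CPM (log2 fold change 2.04). Pcp4l1 was at 29.01, 19.08 and 20.78 CPM against 4.696, 3.167 and 3.145 CPM (log2 fold change 2.65).

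The corresponding genes lower in gastrocnemius were Cyp4f39, Hoxc6, Nmrk2, Serpinb1a, Hoxc8, Pou4f1, Hnmt, Gabrd, Lrtm2 and Elovl3. Hoxc6, of the same cluster as Hoxc8, was at 1.409, 1.243 and 1.25 CPM against 3.898, 4.607 and 4.056 CPM in quadriceps (log2 fold change -1.69, SE 0.15, adjusted P = 0.00253, edgeR), with a WT difference of -1.74. Nmrk2, a nicotinamide riboside kinase of muscle, was at 95.34, 61.14 and 61.79 CPM against 189.1, 127.1 and 169.7 CPM (log2 fold change -1.17), and its WT difference of -0.19 was not called. Pou4f1, a POU-domain transcription factor, was at 1.186, 1.067 and 1.427 CPM against 4.928, 3.188 and 3.303 CPM (log2 fold change -1.62). Hnmt, which inactivates histamine, was at 2.61, 2.801 and 2.221 CPM against 6.097, 6.327 and 5.26 CPM (log2 fold change -1.21), near its WT difference of -0.84.

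WT muscles differed in the same directions for most of these genes. The WT test called 305 genes (1.89%), and 133 genes were called in both, which is 12.55% of the HSA-LR calls and 43.61% of the WT calls, and 131 of them had the same sign. Of the 1060 HSA-LR calls, 856 (80.75%) had the same sign in WT, against 62.58% of all genes tested. Their median absolute log2 fold change was 0.67 in HSA-LR, where they were chosen, and 0.27 in WT, whereas the WT calls had 0.93 in WT and 0.48 in HSA-LR. Across the 16167 genes, which are not independent replicates, Pearson's r between the muscle differences was 0.57.

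**Figure D2:**
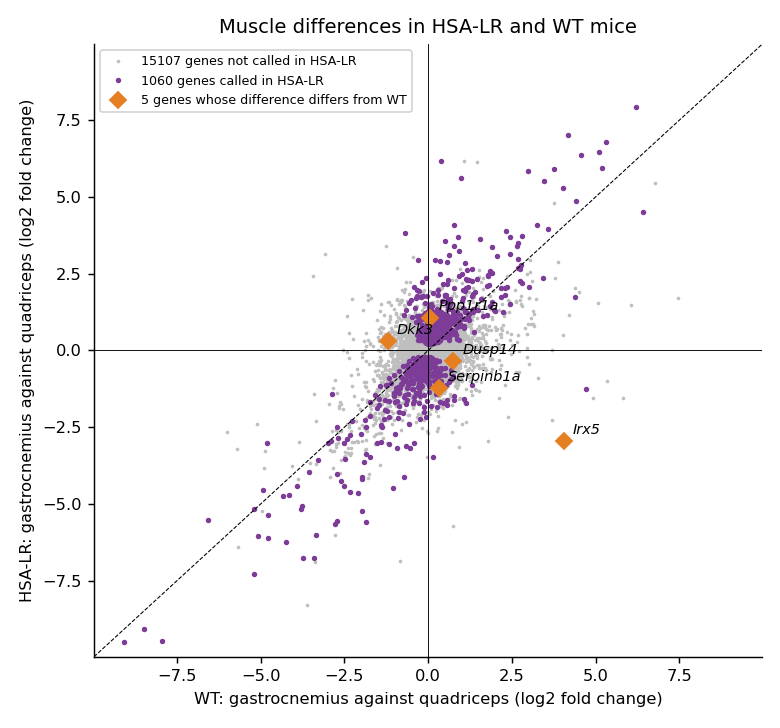
Log2 fold change of gastrocnemius against quadriceps in WT (horizontal) and in HSA-LR (vertical), 1 point per gene tested, with genes called in HSA-LR in purple and the 5 genes whose difference departed from that in WT as orange diamonds. Most purple points (856 of 1060) have the same sign in WT, and Irx5 lies apart at the lower right.

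A direct test of the HSA-LR against the WT muscle difference called 5 genes (0.0309%), Dkk3, Dusp14, Serpinb1a, Irx5 and Ppp1r1a, and 1384 genes had an unadjusted P under 0.05. Dkk3, a secreted dickkopf protein, was at 2.802, 3.084 and 2.914 CPM in HSA-LR gastrocnemius and at 2.2, 2.336 and 2.567 CPM in HSA-LR quadriceps. In WT it was at 22.25, 26.07 and 5.589 CPM in gastrocnemius and at 52.73, 60.7 and 12.62 CPM in quadriceps, so that WT mouse 3 was low in both muscles. Its muscle difference in HSA-LR minus that in WT was 1.52 on the log2 scale (SE 0.14, adjusted P = 0.0151, edgeR). Ppp1r1a, an inhibitor of protein phosphatase 1, was at 45.8, 35.21 and 44.0 CPM in HSA-LR gastrocnemius and at 21.79, 18.53 and 18.98 CPM in HSA-LR quadriceps. Its WT levels were between 52.6 and 78.5 CPM in gastrocnemius and between 49.5 and 84.5 CPM in quadriceps, and the differences departed by 1.02 (SE 0.13, adjusted P = 0.0458, edgeR). None of the 5 was called without the block, without HSA-LR mouse 1, without HSA-LR mouse 2 or without WT mouse 1. The count was 1 without HSA-LR mouse 3, 12 without WT mouse 2 and 11 without WT mouse 3, and DESeq2 called 253 genes.

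Splicing severity was read from the share of a gene's counts that fell in a bin. The exons that the study followed were close to each other in the diseased muscles. Exon 7a of Clcn1 (chr6:42293444-42293522, + strand, coding) took 1.181%, 1.348% and 1.036% of the gene's counts in gastrocnemius and 1.138%, 1.190% and 1.078% in quadriceps, where WT libraries had between 0.0646% and 0.142%. Exon 5 of Mbnl1 (chr3:60614683-60614736, + strand, coding), which sets the nuclear location of the protein, took 0.582%, 0.858% and 0.813% against 0.578%, 0.888% and 0.718%, and WT libraries had between 0.0962% and 0.154%. Exon 22 of Atp2a1 (chr7:126446545-126446586, - strand), the fast-muscle calcium pump, took 0.967%, 0.729% and 0.861% against 0.923%, 0.831% and 0.861%, and WT libraries had between 3.86% and 3.98%. The muscles overlapped for each of the 3 exons, and none was called between them (adjusted P = 1.0, edgeR). With 3 mice an exact paired sign-flip test cannot give a P below 0.25.

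Exons 7a of Clcn1 and 5 of Mbnl1, which the study followed, and a bin of Phka1 that was less used in HSA-LR than in WT are shown as read on the transcript strand (5′ to 3′; GENCODE M21 transcripts, GRCm38), with the words CGCC or CGCT and the words TGCC or TGCT, short motifs that MBNL proteins are known to bind (searched on this strand only), in capitals. Clcn1 exon 7a, the exon behind myotonia, holds 3 of these words, and 13.2% of 591 coding bins of the same length hold at least 3. Mbnl1 exon 5 holds none, beside 48.4% of 771 such bins with at least 1. Bin 17 of Phka1 (chrX:102557096-102557272, - strand), a subunit of muscle phosphorylase kinase, holds 4, beside 34.8% of 276 bins of its length with at least 4. Overlapping words were each counted.
Clcn1 exon 7a: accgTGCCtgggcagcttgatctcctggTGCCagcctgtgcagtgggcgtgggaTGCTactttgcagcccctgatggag
Mbnl1 exon 5: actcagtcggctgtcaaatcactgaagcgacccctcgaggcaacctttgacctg
Phka1 bin 17: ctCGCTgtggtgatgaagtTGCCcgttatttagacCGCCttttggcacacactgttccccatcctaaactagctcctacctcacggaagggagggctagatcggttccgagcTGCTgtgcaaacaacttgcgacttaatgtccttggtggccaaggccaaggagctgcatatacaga

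Bin 17 of Phka1 was less used in HSA-LR, at 0.203%, 0.206% and 0.261% in gastrocnemius and 0.321%, 0.327% and 0.284% in quadriceps, against 1.73% to 2.27% in WT. Every gastrocnemius value was below every quadriceps value, yet the bin was not called between the muscles (adjusted P = 1.0, edgeR). Bin 19 of Tnnt3, the fast troponin T, took 2.585%, 2.697% and 2.624% in gastrocnemius and 1.726%, 2.642% and 2.118% in quadriceps, and at most 0.0286% in WT. Quadriceps 1 was the lowest HSA-LR library for it. Bin 32 of Asph, an aspartyl hydroxylase gene whose shorter products include junctin, was at 0.253%, 0.225% and 0.208% against 0.371%, 0.335% and 0.448%, with no overlap, and WT libraries had between 1.56% and 2.105% (adjusted P = 0.288, edgeR).

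**Figure D3:**
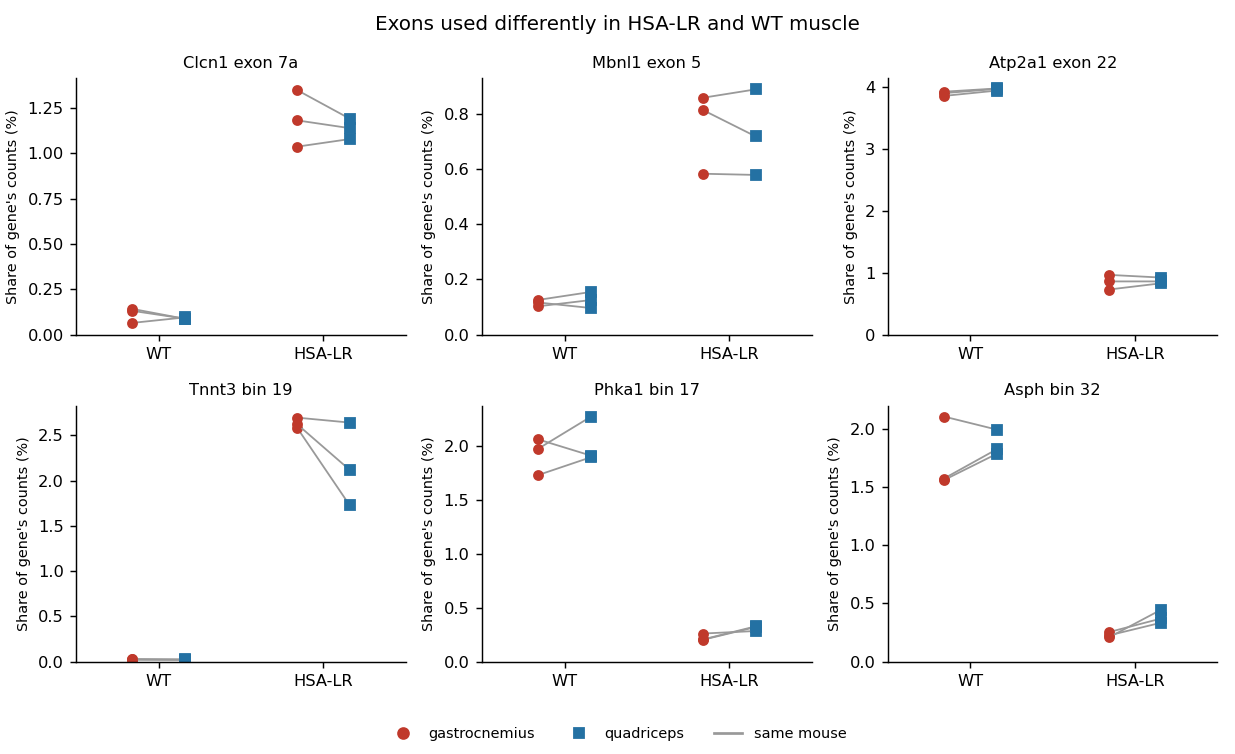
Share of the gene's counts (%) in 6 exon bins of the HSA-LR signature, by genotype, for gastrocnemius (red circles) and quadriceps (blue squares), with a line joining the muscles of a mouse. HSA-LR and WT libraries are far apart in each panel, whereas the muscles of HSA-LR mice overlap for 4 of the 6 bins, the exceptions being Phka1 and Asph.

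Across the transcriptome, bins were chosen by HSA-LR against WT in counts summed over both muscles of a mouse, without use of the difference between the muscles. This called 1060 of 193776 bins (0.547%), 747 of them at least 2-fold (0.385%), in 395 genes, with 464 more used and 283 less used in HSA-LR. The chosen bins differ from WT by that choice, and their sizes in each muscle are given as a description. The sums were of raw counts, so that the muscle with more counts weighed more in the choice. WT gastrocnemius libraries held between 124221612 and 143135976 counts, and WT quadriceps libraries between 113931962 and 118065480. The effect of this on the score was not tested. The median shift from WT of the same muscle, in log2 share and signed by the direction of the change, was 1.527, 1.656 and 1.565 in the gastrocnemius of mice 1, 2 and 3 and 1.442, 1.561 and 1.516 in their quadriceps. The means were 1.58 ± 0.066 and 1.51 ± 0.060 (SD, n = 3). Gastrocnemius was higher by 0.085, 0.095 and 0.049, which is higher in 3 of 3 mice with a mean of 0.076 ± 0.024 (SD, n = 3). All 3 mice were set against the same WT means, so these differences share any error in those means. The SD leaves out the spread of the WT libraries, whose own medians ranged from -0.058 to 0.075. The difference between the muscles was -0.007 when bins had to change 4-fold and 0.003 with 1 bin per gene, so that its sign depended on which bins were scored.

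Among single bins, gastrocnemius had the larger shift for 425 of the 747 bins and quadriceps for 322, and 663 bins (88.76%) differed by less than 1 log2 unit. More-used bins had a median shift of 1.757 in gastrocnemius and 1.594 in quadriceps, and less-used bins 1.309 and 1.378, so that the order of the muscles was the opposite for the latter. Of 713 signature bins that passed the filter for the comparison of muscles, 11 (1.54%) were called between the HSA-LR muscles, beside 0.0343% of all bins tested. They include bins of Cacna1a, Pou4f1, Slc41a3, Tfeb, Tmod1 and Tnnt3. The Tnnt3 bin was bin 6, of 3 bases, at 0.00319%, 0.0866% and 0.00960% in gastrocnemius, and it overlapped between the muscles. Bin 19 of Tnnt3 was not called between them. The shares of 119 signature bins (15.93%) did not overlap between the muscles, beside 10.4% of all bins.

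Gene levels had the other order. Of 16877 genes, 972 (5.76%) were called and at least 2-fold different between HSA-LR and WT in the mouse sums, of which 919 passed the filter in the single libraries. Their median shift in log2 CPM was 1.407, 1.388 and 1.449 in gastrocnemius and 1.544, 1.529 and 1.607 in quadriceps, so that quadriceps was higher in 3 of 3 mice. These mice, too, were all set against the same WT means, and the WT libraries had medians between -0.02 and 0.03. The shift was larger in quadriceps for 532 of the 919 genes and in gastrocnemius for 387. Other scorings are given for the bins only, so how far the gene order depends on the genes scored was not tested. Of the 919, 141 (15.3%) were called between the HSA-LR muscles, beside 6.56% of all genes.

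**Figure D4:**
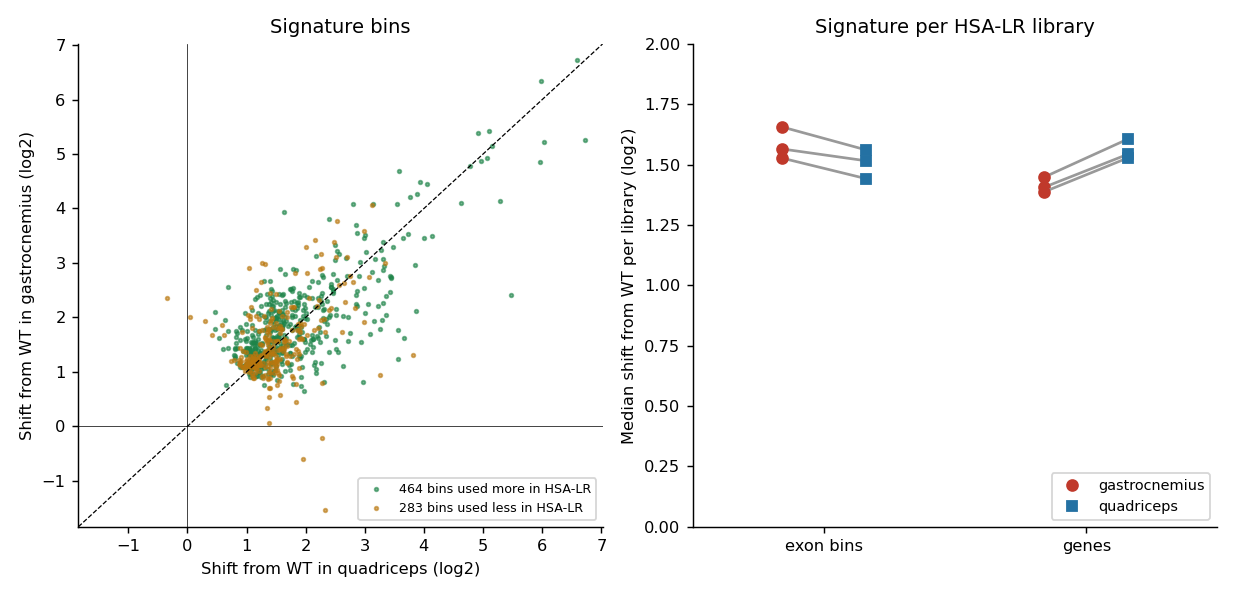
Left, mean shift from WT (log2 share of the gene's counts, signed by the direction of the change) of 747 signature bins in quadriceps and gastrocnemius, in green for the 464 bins more used and orange for the 283 less used in HSA-LR. Right, the median shift per HSA-LR library over bins and over 919 genes, with a line per mouse. Gastrocnemius is higher for bins and quadriceps for genes in all 3 mice, which share the same WT means.

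Exon bins that differed between the diseased muscles were few. Of 180522 bins tested, 62 in 44 genes were called (0.0343%), 28 of them more used in gastrocnemius, and 38 were called without mouse 1. Shares were under 1% of the gene's counts for 41 of the 62. In 24 genes, 37 of the bins did not overlap between the muscles, beside 10.4% of all bins tested. WT muscles had 53 bins called (0.0294%). Of the 34 bins less used in gastrocnemius, 11 had quadriceps 1 and 2 above every gastrocnemius value and quadriceps 3 not, the order seen in the adipocyte sums. The share of all bins with this order was not counted. One of the 11 is bin 19 of Pepd, at 0.0603%, 0.0637% and 0.0910% in gastrocnemius and 1.21%, 2.04% and 0.0186% in quadriceps.

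Tpm3, the slow tropomyosin gene, had the largest shares. Its bin 40 (chr3:90099528-90100896, coding and UTR) took 1.385%, 2.57% and 1.599% of the gene's counts in gastrocnemius and 22.13%, 30.04% and 28.92% in quadriceps (log2 relative use -3.91, adjusted P = 6.38e-06, edgeR). Its bin 23, a coding exon, took 0.203%, 0.392% and 0.247% against 2.61%, 3.436% and 3.057%. The level of bin 23 itself was 1.393, 1.366 and 1.326 CPM in gastrocnemius and 1.169, 1.11 and 0.744 CPM in quadriceps, while the gene as a whole was at 687.1, 348.1 and 537.1 CPM against 44.8, 32.32 and 24.34 CPM. The level of bin 40 was 9.514, 8.946 and 8.588 CPM against 9.911, 9.708 and 7.041 CPM, with overlap, whereas bin 23 was higher in every gastrocnemius library. Both differed less than the gene as a whole. WT muscles had the same bins called.

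Bin 19 of Myom1, a protein of the sarcomere's M-band, took 0.257%, 0.145% and 0.228% in gastrocnemius and 0.0300%, 0.0360% and 0.0367% in quadriceps (log2 relative use 2.57, adjusted P = 2.91e-43, edgeR), and 1.78 in WT. It was not called between HSA-LR and WT (adjusted P = 0.365, edgeR).

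In Cacnb1, the beta subunit of the muscle calcium channel that triggers contraction, exon use differed between the diseased muscles, and this difference departed from that in WT. Bin 24 (chr11:98022342-98022627, - strand) took 0.520%, 0.332% and 0.395% in HSA-LR gastrocnemius and 0.884%, 0.805% and 0.811% in HSA-LR quadriceps, while WT libraries had between 0.320% and 0.565% in gastrocnemius and between 0.324% and 0.550% in quadriceps. The quadriceps of the 3 HSA-LR mice thus stood above the other 9 libraries. The log2 relative use was -1.02 in HSA-LR (adjusted P = 8.13e-06, edgeR) and 0.11 in WT, and the differences departed by -1.13 (adjusted P = 0.012, edgeR). Bin 23, a neighbouring coding exon, took 0.710%, 0.465% and 0.582% against 1.092%, 1.054% and 1.139%, and the departure from WT was -1.03 (adjusted P = 0.0547, edgeR). The departure of bin 24 lay between -1.297 and -0.926 under 11 alternatives and was called in 6 of them, with an adjusted P between 0.00194 and 1.0 (edgeR or limma). It was not called without the block, without HSA-LR mouse 2 (adjusted P = 0.215, edgeR) or mouse 3 (adjusted P = 0.104, edgeR), or without WT mouse 2 (adjusted P = 1.0, edgeR) or mouse 3 (adjusted P = 0.219, edgeR). Akt2, a kinase of insulin signalling, and Gpi1, a glycolytic enzyme, also had bins called in both tests, beside 30 bins (0.0166%) called against WT in all, a count that was 87 without HSA-LR mouse 2, 19 without HSA-LR mouse 3, 165 without WT mouse 1, 19 without WT mouse 2 and 14 without WT mouse 3. Bin 9 of Akt2 took 0.0366%, 0.0683% and 0.00663% against 0.186%, 0.277% and 0.0800%.
The exons of Cacnb1 (chr11:98019680-98019766, - strand) and Tpm3 (chr3:90088401-90088476, + strand) are given because their use parted the muscles. The former holds 1 of the words, as at least 1 is held by 65.6% of 662 coding bins of the same length. The latter holds 3, and 10.6% of 587 such bins hold at least 3.
Cacnb1 bin 23: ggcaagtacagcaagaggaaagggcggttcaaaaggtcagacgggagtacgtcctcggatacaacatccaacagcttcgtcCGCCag
Tpm3 bin 23: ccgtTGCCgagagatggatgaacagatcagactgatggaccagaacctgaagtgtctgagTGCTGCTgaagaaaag

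**Figure D5:**
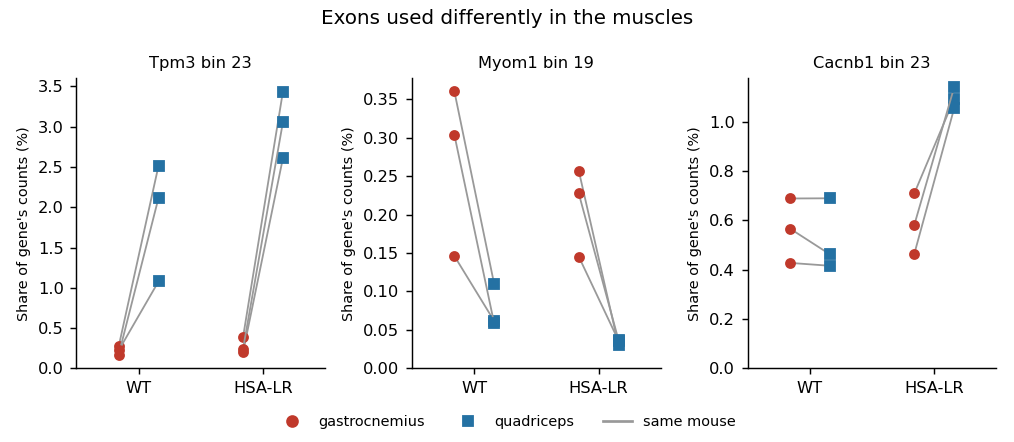
Share of the gene's counts (%) in bins of Tpm3, Myom1 and Cacnb1 by genotype, for gastrocnemius (red circles) and quadriceps (blue squares), with a line joining the muscles of a mouse. Tpm3 and Myom1 separate the muscles in both genotypes, and Cacnb1 is raised in HSA-LR quadriceps, where its 3 values lie above the other 9 libraries.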

How the data were processed

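RNA of each muscle was sequenced after polyA selection (TruSeq Stranded). The submitters' processing notes name CASAVA, HISAT, featureCounts 1.5.0 and GRCm38. The values are raw counts per exon bin that the authors deposited, 1 table per library; how reads across several bins were counted is not given in the sources used here. Between 2.815% and 4.139% of counts named no gene and were left out.

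Counts of 391858 bins were summed over 46725 gene IDs. edgeR 4.0.16 (R 4.3.3; TMM scaling, filterByExpr with a minimum count of 10 and a minimum total of 15) fitted all 18 libraries with a mouse block and a muscle term in each condition, leaving 6 residual degrees of freedom, and diffSpliceDGE compared bins with their genes. P-values were adjusted over all features tested (Benjamini-Hochberg) and called under 0.1. The mouse block rests on the animal numbers; deviations from group means correlated at 0.0871 to 0.2146 within HSA-LR mice and at -0.2431 to 0.1521 between them. The signature used the sums of both muscles in 9 mice. The log2 shares of the severity score used a pseudocount of 0.5 counts, whereas the shares given in % used none. Bin positions were rebuilt from GENCODE M21 where gene version and number of bins matched (41124 genes); those of Myom1 did not. DESeq2 1.42.0, other scalings, filters, samples and left-out mice were tried.

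Genes named were, by rule, the 10 higher and 10 lower with the smallest P among those called, at least 2-fold and moving alike in all mice, the genes called against WT, up to 4 per list, and the exons of the study; bins were the first 12 of the signature and the first 8 of each test. Some items that these rules name are not reported here. Other list members and Tpm3, Cacnb1 and Gpi1 bins were named after their values were seen. The gene lists and members were chosen with earlier results of these data known. The scripts were tested on simulated data. Of genes called there, 5.34% were false for the muscle difference in HSA-LR and 9.31% for its departure from WT. For bins these shares were 25.7% and 18.2%, both above the threshold set for the adjusted P. Of the 253 and 181 bins called there, 23 and 20 lay in genes where no bin had been changed. The other false calls lay in genes with a changed bin. All 5 bins called there in the WT muscle comparison were false. Of bins changed 2-fold, 89.6% were recovered for HSA-LR and 52.8% for the departure from WT. Nothing in the labels says that mice of a group came from separate litters, and P-values rest on a spread estimated over the mice of all 3 conditions. For bins a small P-value need not mean that the 3 HSA-LR mice agree. Of the 62 bins called between their muscles, 48 moved the same way in all 3 mice.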

Additional observations from a re-analysis of the deposited data

Results flagged for a closer look

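The muscle difference in HSA-LR departed from that in WT for 5 genes and for 7 exon bins, given from the 8 named by rule, by the test of the difference itself (adjusted P under 0.1, edgeR). The values are log2 differences, HSA-LR minus WT. They were 1.52 for Dkk3, -1.10 for Dusp14, -1.55 for Serpinb1a, -7.00 for Irx5 and 1.02 for Ppp1r1a. Dusp14, a dual-specificity phosphatase, was lower in HSA-LR gastrocnemius than in quadriceps, at 5.466, 4.78 and 5.228 CPM against 6.858, 5.918 and 6.933 CPM, and higher in WT, at 8.684, 8.134 and 10.29 CPM against 4.932, 5.275 and 5.872 CPM. Serpinb1a, a protease inhibitor with close paralogs that may share its reads, was at 6.99, 6.476 and 8.487 CPM against 15.16, 15.46 and 21.02 CPM in HSA-LR. Irx5, an Iroquois homeobox factor, was at 0.0462, 0.0384 and 0 CPM against 0.399, 0.201 and 0.0753 CPM in HSA-LR, and at 2.255, 0.366 and 2.341 CPM against 0.167, 0.0263 and 0.103 CPM in WT.

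The bins differed by 9.57 for Vdac3 bin 12, 2.68 for Atp5f1 bin 7, -2.73 for Syne1 bin 127, 2.84 for Ablim3 bin 3, 3.21 for Hsp90ab1 bin 23, 2.86 for Ttn bin 14 and -2.04 for Aldoa bin 11. Vdac3 bin 12, of 3 bases, was high in HSA-LR gastrocnemius 1 and 2 (0.551% and 0.917%) and in WT quadriceps 1 and 2 (0.636% and 0.547%), and at most 0.149% elsewhere in these genotypes. Syne1 bin 127 was highest in WT gastrocnemius, at 5.69%, 4.73% and 5.09%, against 1.14%, 0.689% and 1.28% in HSA-LR gastrocnemius, 3.05%, 1.23% and 1.76% in HSA-LR quadriceps, and 1.54%, 1.28% and 1.63% in WT quadriceps. HSA-LR shares overlapped between the muscles for each of these 7 bins.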

How the results depend on the processing

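Counts in HSA-LR ranged from 150 to 1138 genes and from 38 to 75 bins when 1 mouse was left out, against 1060 and 62. Genes called were 357 with no replicate block, and bins 46; bins with at least 10 counts in every library were 41. For the difference from WT, 5 genes became 253 with DESeq2, 16 with at least 10 counts, 8 with the largest bin of a gene, 36 without a filter, 0 without the block (710 at an unadjusted P under 0.05), 16 with relative log expression and 14 with upper-quartile scaling. The calls of Irs1, Heyl and Rplp0 were lost without any 1 HSA-LR mouse, and Hlf and Bhlhe40 became 1, 0 and 1 calls without mice 1, 2 and 3. Leaving out 1 mouse gave 0 to 12 genes and 14 to 165 bins, against 30. The severity score was 1.273 in gastrocnemius and 1.242 in quadriceps with no fold threshold (difference 0.032), and 2.549 and 2.556 with a 4-fold threshold (difference -0.007, reversed). With 1 bin per gene quadriceps was 1.588 and the difference 0.003; a pseudocount of 2 gave 1.458 and 1.380; bins chosen without the mouse scored gave a difference of 0.107. The cause of these changes was not tested. Of the values of single genes and bins under alternatives, 1977 kept direction and call, 177 lost the call and 44 gained it. Of the list counts, 281 stayed within 1.5 times and 94 did not. The score has 3 mice and no test. Shares under 1% rest on few counts for low genes.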
